A study of Mus musculus with 12 samples.

Results

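A set of 10 genes that reactive astrocytes are known to express was followed in brain tissue after traumatic brain injury (TBI) and after zileuton treatment. The set held Gfap, Vim, Nes, Hspb1, Serpina3n, Aspg, Steap4, Osmr, Cd44 and S1pr3. They were picked by name with earlier results of these data known and matched by symbol to the Ensembl identifiers of the count tables. All 10 were found among the 35697 gene rows of the table that compared sham with TBI and among the 55637 gene rows of the table that compared TBI with zileuton. All 10 also passed the filter on low counts, which left 19536 and 17363 genes for testing.

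Messenger RNA was sequenced from the brains of adult male wild-type C57BL/6J mice, in 4 groups of 3 mice. In the batch of 2018, SH_WT mice went through the surgery of the model with no impact, and TBI_WT mice received a controlled cortical impact (3 mm tip, 1.5 m/s, 1.5 mm depth, 100 ms dwell) and were sampled 7 days later. In the batch of 2022, TBI_7d mice received the same impact, and Zi_7d mice received the impact and then daily intraperitoneal zileuton at 10 mg per kg in corn oil. Zileuton is an inhibitor of 5-lipoxygenase, the enzyme that starts leukotriene synthesis. The study's methods place the tissue around the contusion, so each library mixes all cell types of that region, and a higher level in astrocytes cannot be told apart from a larger share of astrocytes. The study describes the controls of the zileuton comparison as vehicle-treated, whereas the sample labels name only the injury. The labels of the zileuton mice give 7, 8 and 9 days after injury although their library names all carry 7 days. The columns of the 2022 table could be tied to a group but not to a single label, so these mice are called A, B and C here and the day of each one is not known. Total counts ran from 42929862 to 48684674 in 2018 and from 27845562 to 35453257 in 2022. The sham group existed only in 2018 and the zileuton group only in 2022, and the batches were compared only within themselves.

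Astrocytes respond to injury of the central nervous system by thickening their processes, building more intermediate filament and, close to a lesion, helping to form a glial scar. Part of this response runs through cytokines of the interleukin-6 family, whose receptors share the subunit gp130 (Il6st) and signal through Janus kinases to the transcription factor STAT3. Gfap and Vim encode the filaments themselves, Serpina3n and Steap4 belong to the genes that many kinds of injury induce in astrocytes, and Osmr, Cd44 and S1pr3 encode receptors at the cell surface. Several of the 10 genes are also used by other cells. Vim is made by endothelial cells, fibroblasts and microglia, Nes by neural progenitors and endothelial cells, and Cd44 by leukocytes.

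The stretches before the start sites of 4 of these genes are printed because they show how unlike the proximal promoters of the set were in 3 motifs of injury-related factors. All 10 genes matched 1 entry each in the RefSeq promoter table (build GRCm38.p6), and the 250 bases before each start were searched on both strands for TTCNNNGAA (STAT), TGANTCA (AP-1) and GGGA followed by any 4 bases and CC (NF-kB). Each sequence is written 5′ to 3′ on the strand of its gene, with motif matches in capitals.
Steap4, chr5:7960222-7960471, plus strand: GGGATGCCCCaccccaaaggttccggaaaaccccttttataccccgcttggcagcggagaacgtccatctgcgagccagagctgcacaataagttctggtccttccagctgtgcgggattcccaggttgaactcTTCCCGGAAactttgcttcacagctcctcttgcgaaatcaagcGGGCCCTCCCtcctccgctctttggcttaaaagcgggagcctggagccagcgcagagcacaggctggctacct
Serpina3n, chr12:104406458-104406707, plus strand: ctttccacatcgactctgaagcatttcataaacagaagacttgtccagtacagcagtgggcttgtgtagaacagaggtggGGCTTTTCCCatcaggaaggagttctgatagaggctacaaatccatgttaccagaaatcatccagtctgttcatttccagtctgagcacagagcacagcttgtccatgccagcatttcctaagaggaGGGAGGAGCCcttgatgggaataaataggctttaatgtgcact
Vim, chr2:13574061-13574310, plus strand: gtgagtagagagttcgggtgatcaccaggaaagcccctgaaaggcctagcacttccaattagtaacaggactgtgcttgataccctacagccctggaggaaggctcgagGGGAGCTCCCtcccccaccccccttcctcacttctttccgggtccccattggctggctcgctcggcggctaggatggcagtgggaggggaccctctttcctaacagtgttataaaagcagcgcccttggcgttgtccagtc
Gfap, chr11:102897201-102897450, minus strand: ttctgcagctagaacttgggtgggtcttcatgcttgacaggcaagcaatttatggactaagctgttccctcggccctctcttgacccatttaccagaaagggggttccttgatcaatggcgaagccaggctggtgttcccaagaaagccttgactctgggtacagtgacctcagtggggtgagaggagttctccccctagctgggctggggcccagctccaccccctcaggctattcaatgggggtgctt
The STAT motif stood in 1 of the 10 promoters, that of Steap4, against 7.02% of all 32851 promoters in the table. The match in Steap4 was TTCCCGGAA, from 116 to 108 bases before the start. The NF-kB motif stood in 5 of 10 promoters (Vim, Nes, Serpina3n, Steap4 and Osmr) against 17.6% of all promoters, and Serpina3n and Steap4 held it in 2 places each. The AP-1 motif stood in 0 of 10 promoters against 6.75% of all. The Gfap promoter held none of the 3 motifs within this window. Starts were taken from RefSeq, and the windows of Gfap, Vim and Osmr lie inside the GENCODE gene spans given below. The matches describe letters in the reference sequence, and binding was not measured here.

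The first comparison asked what the impact had done to gene expression in the tissue after 7 days. All 10 reactive astrocyte genes rose in TBI_WT over SH_WT, with fold changes from 1.80 for Hspb1 to 21.3 for Serpina3n. An adjusted p under 0.05 in edgeR's quasi-likelihood test, with Benjamini-Hochberg adjustment over all genes tested, is meant by rose and fell throughout. The same test found 16.8% of all genes higher and 11.2% lower after injury. These shares are the background for each list count of this comparison given below. Of the 10 genes, 9 rose by at least 2-fold, against 8.73% of all genes, and 8 rose by at least 4-fold, against 3.83% of all genes. Because the set was chosen with earlier results of these data known, these shares describe it and do not test it. In each of the 10, every injured mouse stood above every sham mouse, which held for 24.6% of all genes. The median log2 fold change of the set was 3.13, beside 0.02 over all genes tested. The plot of CPM by mouse shows each value.

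**Figure D1:**
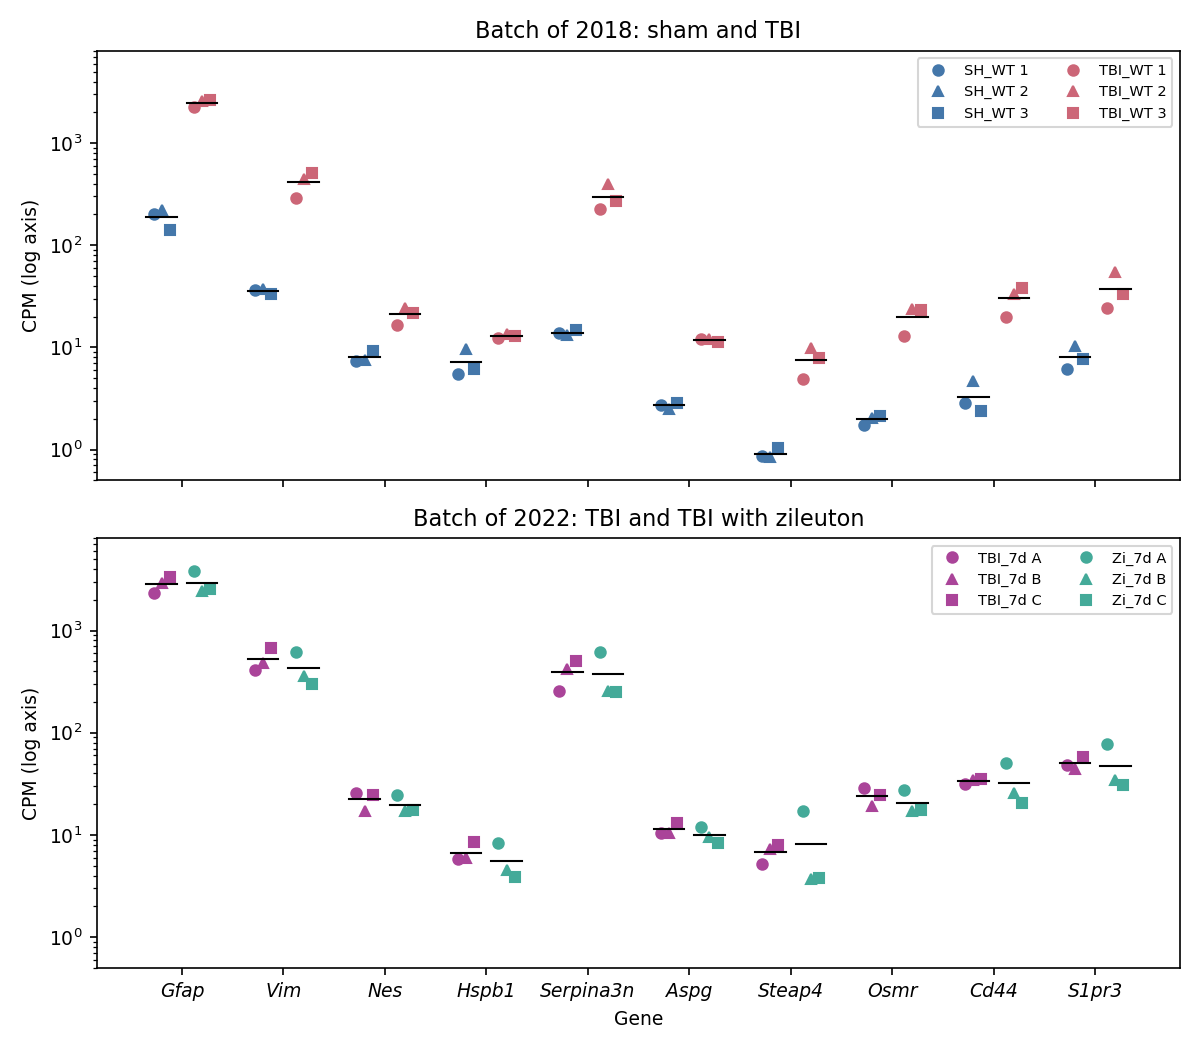
CPM (log axis) of the 10 reactive astrocyte genes in each mouse, with the 3 sham and 3 injured mice of 2018 in the upper panel and the 3 injured and 3 zileuton-treated mice of 2022 in the lower panel. Symbols mark the mice and black bars the group means. In the upper panel the groups are apart for all 10 genes, and in the lower panel Zi_7d mouse A is the highest of its group for all 10.

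Gfap encodes the glial fibrillary acidic protein, the main filament of astrocytes, and lies on chr11:102887336-102900912 (GRCm38, minus strand). Its levels in CPM, counts per 1000000 counts of the library, were 202, 221 and 141 in the sham mice and 2241, 2595 and 2616 in the injured mice. The lowest injured mouse was far above the highest sham mouse, and the injured mice lay close together. The group means were 188 ± 41.6 (SD, n = 3) and 2484 ± 211 CPM, a 13.2-fold rise (95% interval 10.1 to 17.3, adjusted p = 5.67e-06). Gfap alone made up 64.0% to 78.4% of the summed CPM of the 10 genes in the 2018 mice. The antisense long non-coding gene Gm26668 overlaps Gfap in the annotation, and the strand setting of the counting is not given in the sources used here.

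Vim encodes vimentin, which co-assembles with the glial fibrillary acidic protein in reactive astrocytes (chr2:13573927-13582826, plus strand). Its CPM were 36.0, 37.4 and 33.3 in sham and 288, 445 and 505 after TBI. The sham mice were nearly level, while injured mouse 1 was well under the other two. The rise was 11.6-fold (95% interval 8.54 to 15.8, adjusted p = 1.06e-05).

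Nes encodes nestin, a filament of neural progenitors that reactive astrocytes take up again (chr3:87971078-87980451, plus strand). Its CPM were 7.28, 7.52 and 9.15 in sham and 16.6, 24.5 and 21.9 after TBI. The groups did not overlap, and the log2 fold change was 1.39 ± 0.17 (SE, adjusted p = 0.000416), less than that of Gfap or Vim.

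Hspb1 encodes a small heat shock protein that acts as a chaperone of filaments and actin (chr5:135887919-135889563, plus strand). Its CPM were 5.50, 9.68 and 6.19 in sham and 12.2, 13.5 and 12.8 after TBI. Sham mouse 2 stood apart from the other two and came closest to the injured mice, which were nearly level. The log2 fold change of 0.85 ± 0.21 (SE, adjusted p = 0.0152) was the smallest of the 10. It was the only one of the 10 whose call was lost on leaving out a mouse, with adjusted p = 0.0512 without SH_WT replicate 1 and 0.0625 without SH_WT replicate 3.

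Serpina3n encodes a secreted serine protease inhibitor that acts on proteases of leukocytes (chr12:104406729-104414329, plus strand). Its CPM were 13.7, 13.1 and 14.9 in sham and 227, 393 and 269 after TBI. All sham mice lay within a narrow band, and injured mouse 2 was the highest. The log2 fold change of 4.41 ± 0.20 (SE, adjusted p = 5.67e-06) was the largest of the 10. Serpina3n belongs to a cluster of near-identical genes among which reads can be split. The levels of 8 other genes of the cluster in this table reached at most 1.07 CPM in any mouse, and only Serpina3i passed the count filter. Serpina3i had 0.0444, 0 and 0 CPM in sham and 0.386, 1.01 and 1.02 CPM after TBI and rose with an adjusted p of 0.00211.

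Aspg encodes an asparaginase with lysophospholipase activity (chr12:112106679-112127559, plus strand). Its CPM were 2.73, 2.49 and 2.88 in sham and 12.1, 12.2 and 11.3 after TBI. Both groups were tight, and Aspg had the smallest standard error of the 10, with a log2 fold change of 2.14 ± 0.14 (adjusted p = 1.92e-05). The other asparaginase genes changed less, with Asrgl1 and Aga both rising and a median log2 fold change of 0.60 for the pair.

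Steap4 encodes a metalloreductase of iron and copper at endosomal and plasma membranes (chr5:7960457-7982213, plus strand). Its CPM were 0.866, 0.843 and 1.03 in sham and 4.86, 9.91 and 7.94 after TBI. Injured mouse 1 was again the lowest, but still well above the sham mice. The rise was 8.26-fold (95% interval 5.23 to 13.1, adjusted p = 0.000122). Of the 3 other genes of the family, Steap3 rose with a log2 fold change of 1.42 ± 0.12 (SE), and Steap1 rose with an adjusted p of 0.0359 that was lost on leaving out any of 4 single mice, in DESeq2 (adjusted p = 0.0669) and in edgeR's robust fit (adjusted p = 0.0693).

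Osmr encodes the subunit that binds oncostatin M and pairs with gp130 (chr15:6813577-6874969, minus strand). Its CPM were 1.75, 2.05 and 2.13 in sham and 12.99, 23.91 and 22.98 after TBI. Injured mouse 1 was lower than the other two, which were nearly level, and the groups were far apart. The rise was 10.1-fold (95% interval 6.82 to 14.9, adjusted p = 3.33e-05).

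Cd44 encodes the receptor of hyaluronan and osteopontin (chr2:102811141-102901665, minus strand). Its CPM were 2.84, 4.67 and 2.38 in sham and 19.7, 33.6 and 38.1 after TBI. Both groups spread widely on their own scale, without overlap. The rise was 9.24-fold (95% interval 5.68 to 15.0, adjusted p = 0.000129).

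S1pr3 encodes a receptor of sphingosine-1-phosphate that couples to several G proteins (chr13:51408639-51422797, plus strand). Its CPM were 6.19, 10.3 and 7.66 in sham and 24.2, 54.8 and 33.2 after TBI. Injured mouse 2 was the highest, and the spread in both groups was wide. The rise was 4.65-fold (95% interval 2.90 to 7.44, adjusted p = 0.000860). The antisense long non-coding gene Gm32834 overlaps S1pr3, and its log2 fold change was -0.01 (adjusted p = 0.985).

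**Figure D2:**
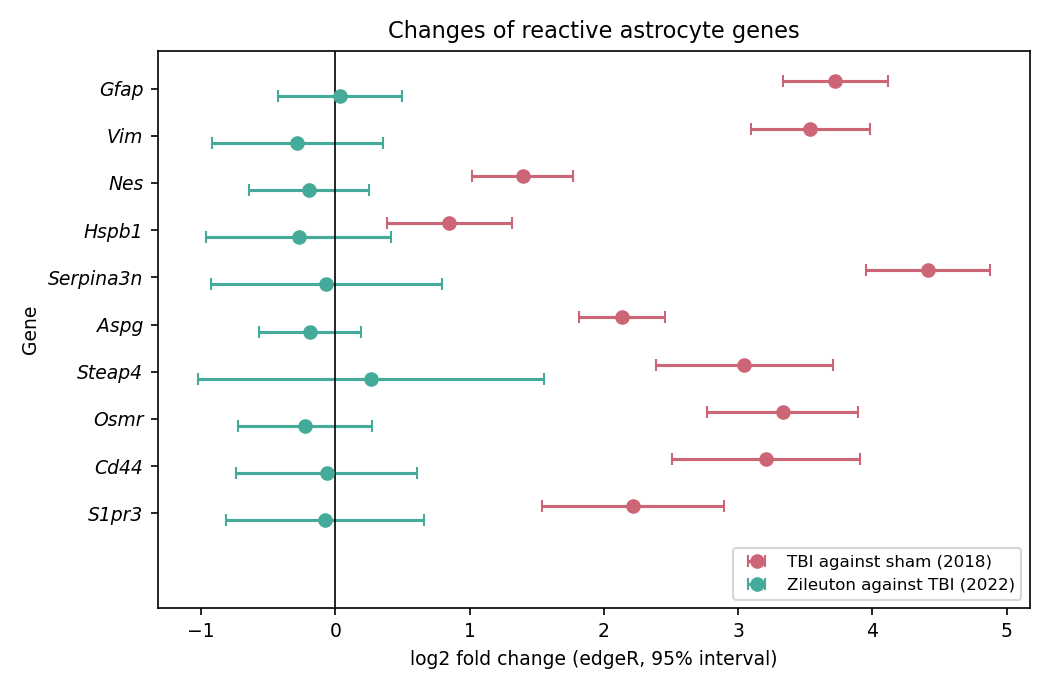
Fitted log2 fold changes of the 10 reactive astrocyte genes with 95% intervals, for TBI against sham (2018) and for zileuton against TBI (2022). All 10 intervals of the injury comparison lie above 0, from Hspb1 at 0.85 to Serpina3n at 4.41, and all 10 intervals of the zileuton comparison include 0.

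By the median, the injured mice differed more among themselves in these genes than over all genes. The median SD of log2 CPM over the 10 genes was 0.16 in SH_WT and 0.42 in TBI_WT, whereas over all genes tested it was 0.15 and 0.18. In TBI_WT the SD was 0.06 for Aspg, 0.07 for Hspb1 and 0.13 for Gfap, under the median of all genes. For the other members it was above that median. TBI_WT replicate 1 was the lowest injured mouse for 9 of the 10 genes, the exception being Aspg, against 32.4% of all genes. Replicate 2 was the highest for 7 of 10, against 31.6% of all genes. The summed CPM of the 10 genes were 279, 309 and 221 in sham and 2859, 3606 and 3539 after TBI.

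Levels were compared between genes on the FPKM scale, which corrects for gene length. In sham tissue Gfap led with 43.8 FPKM, followed by Vim with 7.36, Hspb1 with 6.79 and Serpina3n with 6.61, and the ranges of these last 3 overlapped. S1pr3 (1.77 FPKM) and Nes (1.22 FPKM) came next and overlapped, and below them Aspg (0.753 FPKM), Cd44 (0.478 FPKM), Steap4 (0.284 FPKM) and Osmr (0.160 FPKM) did not overlap with their neighbours. After TBI, Gfap reached 599 FPKM, Serpina3n 147 FPKM and Vim 88.6 FPKM, none of which overlapped. From Hspb1 (12.7 FPKM) down through S1pr3, Cd44, Aspg, Nes and Steap4 to Osmr (1.68 FPKM), each gene overlapped with the next. By mean FPKM, Gfap stood at rank 1067 of all genes in sham and 33 after TBI, Serpina3n at 6443 and 258, and Vim at 5965 and 491. In the 2022 table, on its own TPM scale, the same 3 genes led in both groups, with Gfap at 1992 TPM, Vim at 634 TPM and Serpina3n at 358 TPM in TBI_7d. Vim stood above Serpina3n in TBI_7d without overlap, the reverse of their order in TBI_WT.

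**Figure D3:**
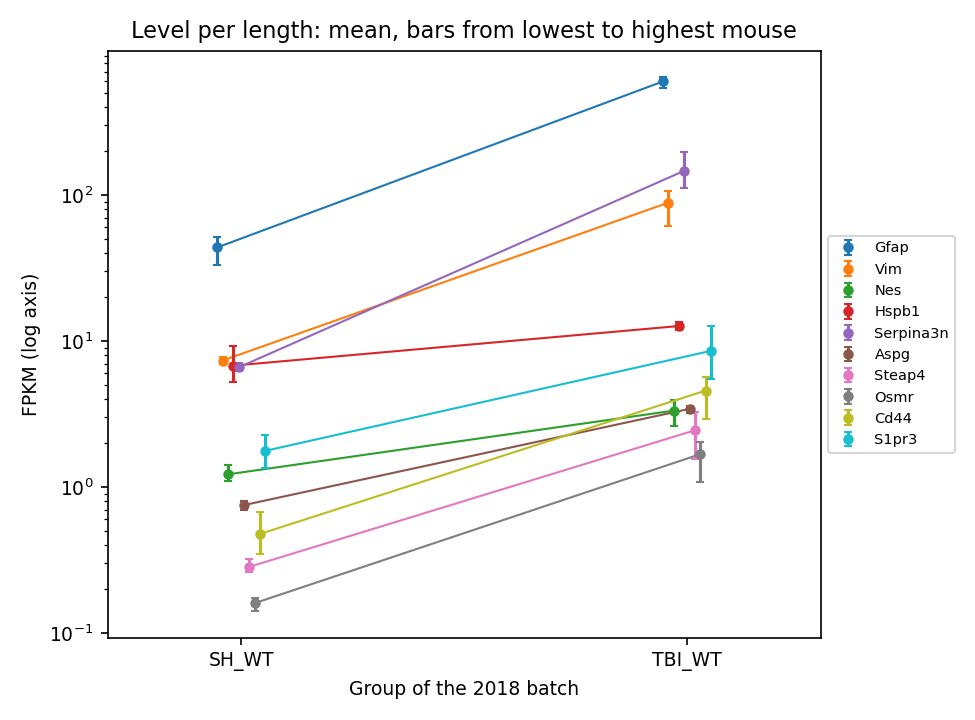
Level per gene length (FPKM, log axis) of the 10 genes in SH_WT and TBI_WT, with points for group means of 3 mice, bars from the lowest to the highest mouse and lines joining the means of 1 gene. Gfap is highest in both groups (43.8 and 599 FPKM), and Serpina3n passes Vim in TBI_WT.

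Genes outside the set that lists assign to reactive astrocytes were read next. Each library mixes all cell types, so the changes of these genes cannot be assigned to astrocytes. All 4 other pan-reactive astrocyte genes rose. Lcn2, which encodes the iron-carrier protein lipocalin 2, had 0.444, 0.0432 and 0.231 CPM in sham and 9.29, 45.3 and 24.4 CPM after TBI, and its log2 fold change of 6.77 ± 0.74 (SE) was 7.54 without SH_WT replicate 1 and 6.13 without TBI_WT replicate 2. Cxcl10, a chemokine of the interferon response, had a log2 fold change of 7.16 ± 0.48 (SE), Timp1, an inhibitor of metalloproteinases, 3.46 ± 0.54, and Cp, the ferroxidase ceruloplasmin, 1.48 ± 0.17. The value of Timp1 was 2.54 without TBI_WT replicate 3, the mouse in which it was highest. Lists that divide reactive astrocyte genes into A1-type and A2-type were read as well. Of 11 A1-type genes, 10 rose, with H2-D1, a class I histocompatibility gene, at 3.64 ± 0.15 and Iigp1, an interferon-induced GTPase, at 3.83 ± 0.25. The exception was Fkbp5, at -0.03 ± 0.16. Of 12 A2-type genes, 9 rose, led by Tgm1, a transglutaminase, at 5.92 ± 0.62. The 3 that did not pass the test were S100a10 at 0.55 ± 0.23, Ptgs2 at -0.17 ± 0.18 and Sphk1 at -0.19 ± 0.24, of which S100a10 passed in DESeq2 (adjusted p = 0.0322) and without TBI_WT replicate 2 (adjusted p = 0.0426). The median log2 fold change was 2.56 in the A1-type list and 1.45 in the A2-type list.

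The pathway that leads to and from Osmr changed at several points. Of 19 genes from ligands of the interleukin-6 family to STAT3 signalling, 17 were tested, 8 rose and 0 fell. Osm, which encodes the ligand oncostatin M, had 0, 0.238 and 0.0842 CPM in sham and 0.813, 0.862 and 2.20 CPM after TBI (log2 fold change 3.55 ± 0.82, adjusted p = 0.0122), and its call was lost without SH_WT replicate 3 (adjusted p = 0.0518). Without 1 mouse, the value of Osm moved: its log2 fold change was 4.798 without SH_WT replicate 2 and 2.93 without TBI_WT replicate 3. The shared receptor subunit Il6st rose by a log2 fold change of 0.59 ± 0.11 and the interleukin-6 receptor Il6ra by 1.43 ± 0.14. Stat3 had 44.5, 47.9 and 45.2 CPM in sham and 78.1, 99.7 and 97.0 CPM after TBI, with a log2 fold change of 1.00 ± 0.10 (adjusted p = 0.000166). Socs3, an inhibitor that STAT3 induces, rose by 1.96 ± 0.30. As for Osmr, the first injured mouse was the lowest of its group for Stat3 and Socs3.

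Partners of Cd44 and S1pr3 were followed in the same way. Of 10 genes for ligands of Cd44 and enzymes of hyaluronan, 5 rose. Spp1, which encodes osteopontin, had 7.35, 10.4 and 8.02 CPM in sham and 604, 656 and 1691 CPM after TBI, a log2 fold change of 6.84 ± 0.46 that was 6.20 without TBI_WT replicate 3. Of 10 other genes of the sphingosine-1-phosphate pathway, 4 rose. Among them were the receptors S1pr1 at 0.51 ± 0.08 and S1pr2 at 1.49 ± 0.18, and Sgpl1, the lyase that degrades the lipid, at 1.40 ± 0.09. The kinase gene Sphk1, named above, did not pass the test. S1pr1 was the receptor with the most counts, at 117 to 139 CPM in sham and 177 to 180 CPM after TBI.

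Filament genes outside the set moved little. Of 10 other intermediate filament genes of neural cells, 1 rose and 0 fell, where 16.8% of all genes rose and 11.2% fell. Their median log2 fold change was 0. The one that rose was Lmnb1, which encodes lamin B1 of the nuclear envelope, at 0.70 ± 0.18 (adjusted p = 0.0203), a call that was lost without any 1 of the 3 sham mice (adjusted p 0.0501 to 0.0780). Among 6 other small heat shock protein genes, 3 rose, with Hspb8 at 1.32 ± 0.13, Hspb6 at 1.19 ± 0.15 and Cryab at 0.60 ± 0.13. The call of Cryab was lost without SH_WT replicate 3 (adjusted p = 0.0505).

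Markers of the cell types in the tissue also moved with the injury. Of 12 astrocyte markers chosen for transport, coupling and identity, 8 rose, and their median log2 fold change was 0.44. Their summed level went from between 6885 and 7824 CPM to between 9201 and 9469 CPM. Aqp4, the water channel of astrocyte endfeet, rose by a log2 fold change of 1.70 ± 0.13 and Gja1, the gap junction protein connexin 43, by 1.03 ± 0.09, while Glul rose by 0.37 ± 0.09 and the glutamate transporter Slc1a2 was at 0.19 ± 0.08 (adjusted p = 0.124). The call of Glul was lost without SH_WT replicate 1 (adjusted p = 0.0602) or 3 (adjusted p = 0.1), and Slc1a2 passed once the trend with gene length was removed (0.30, adjusted p = 0.0195). All 12 microglia and macrophage markers rose, and their sum went from between 341 and 404 CPM to between 2340 and 3697 CPM. Of 8 endothelial markers 6 rose, with sums of 98.3 to 136 and 139 to 214 CPM. Of 8 fibroblast and mural cell markers 7 rose, with sums of 213 to 233 and 313 to 878 CPM. Of 8 neuron markers 4 fell, against 11.2% of all genes, with sums of 8129 to 8748 and 5273 to 6478 CPM. Of 6 oligodendrocyte markers 4 rose, as did 4 of 5 oligodendrocyte precursor markers. No list had a defining marker at 0 in all mice. The part of these cell types in the rise of the 10 genes was not tested.

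Choroid plexus and ependymal markers differed between mice of a group. Their sum was 1083 CPM in SH_WT replicate 1 and 30.5 and 68.0 CPM in the other sham mice, and it was between 1169 and 1389 CPM in the injured mice. Of the 6 markers 1 rose. SH_WT replicate 1 was the only sham mouse near the injured mice in the summed CPM of these markers. Without it all 10 genes were higher after injury, with a median log2 fold change of 3.05, and 9 of 10 passed the test. With SH_WT replicates 2 and 3 left out in turn, the medians were 3.15 and 3.06. Each of those fits kept a sham mouse with a low sum. The fits do not separate choroid plexus content from injury, and its part in the rise was not tested.

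**Figure D4:**
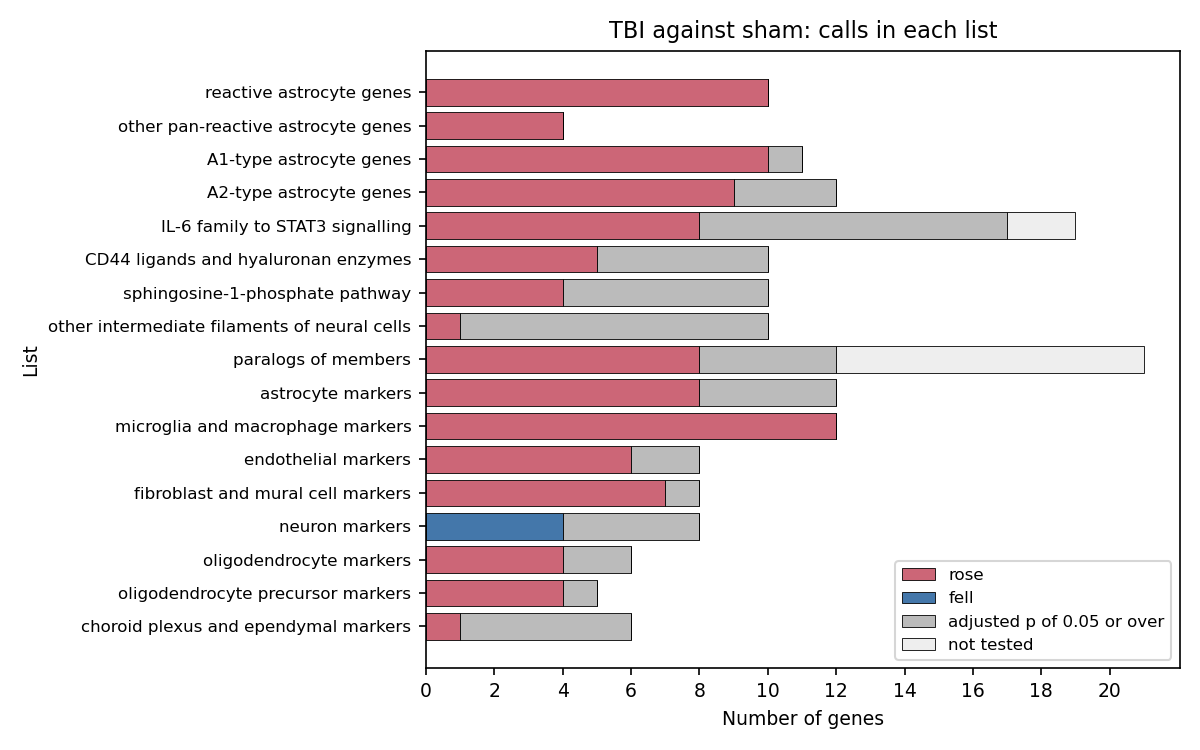
Number of genes in each list that rose, fell, had an adjusted p of 0.05 or over, or were not tested after the count filter, in TBI_WT against SH_WT. All 10 reactive astrocyte genes and all 12 microglia and macrophage markers rose, whereas 1 of 10 other intermediate filament genes rose and 4 of 8 neuron markers fell.

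The genes whose profile over the 6 mice of 2018 was most like the mean log2 profile of the 10, by root mean square difference, were Cd109 (0.076), Abca1 (0.098), Rnf213 (0.11), Atf3 (0.14) and Apobec3 (0.16). Cd109, a membrane protein of the A2-type list, had a log2 fold change of 2.87 ± 0.21, and Abca1, the cholesterol exporter, had 2.72 ± 0.10. Fold changes near the mean of the set follow from this way of picking the genes. Of the 10 genes themselves, Steap4 was nearest to the common profile (0.20) and Hspb1 farthest from it (0.96).

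The second comparison asked what zileuton did to the injured brain. None of the 10 genes passed the test in Zi_7d against TBI_7d, where edgeR called 0% of all genes (0 of 17363, smallest adjusted p 0.185). At an unadjusted p under 0.05 there were 1186 genes, 6.83% of all, and 0 of the 10. DESeq2 called 27 genes and 0 of the 10. The fitted log2 fold changes were negative for 8 of the 10 and positive for Gfap and Steap4, with a median of -0.13 beside 0.00 over all genes.

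Gfap had 2332, 2944 and 3354 CPM in TBI_7d mice A, B and C and 3830, 2465 and 2540 CPM in Zi_7d mice A, B and C. The groups overlapped, because Zi_7d mouse A was the highest of the 6 and mice B and C lay among the controls. The log2 fold change was 0.03 (95% interval -0.43 to 0.49, adjusted p = 0.971).

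Vim had 412, 482 and 671 CPM in TBI_7d and 624, 359 and 303 CPM in Zi_7d. Zi_7d mice B and C were under every control and mouse A was within their range. The log2 fold change was -0.28 (95% interval -0.92 to 0.36, adjusted p = 0.822).

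Serpina3n had 256, 416 and 503 CPM in TBI_7d and 616, 257 and 248 CPM in Zi_7d. Mouse A was again the highest of the 6, and mice B and C were close to the lowest control. The log2 fold change was -0.07 (95% interval -0.93 to 0.79, adjusted p = 0.969). Serpina3g and Serpina3i, the 2 genes of its cluster that passed the filter here, had log2 fold changes of -0.75 and -0.86 and did not pass the test.

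Steap4 had 5.18, 7.35 and 7.95 CPM in TBI_7d and 17.2, 3.68 and 3.76 CPM in Zi_7d. Its treated mice were the most unequal of the 10 genes, with mouse A above every control and mice B and C under every control. The log2 fold change was 0.26 (95% interval -1.03 to 1.56, adjusted p = 0.923).

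Osmr had 29.1, 19.3 and 24.4 CPM in TBI_7d and 27.6, 17.1 and 17.4 CPM in Zi_7d. Cd44 had 31.8, 34.4 and 35.2 CPM in TBI_7d and 51.0, 25.4 and 20.6 CPM in Zi_7d. S1pr3 had 48.4, 43.7 and 57.8 CPM in TBI_7d and 77.0, 34.3 and 30.7 CPM in Zi_7d. For each of these receptors Zi_7d mice B and C were under every control, while mouse A was above every control for Cd44 and S1pr3 and within their range for Osmr. The log2 fold changes were -0.23 (95% interval -0.73 to 0.27) for Osmr, -0.06 (-0.74 to 0.61) for Cd44 and -0.08 (-0.81 to 0.66) for S1pr3.

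Nes had 25.9, 17.1 and 24.7 CPM in TBI_7d and 24.6, 17.0 and 17.5 CPM in Zi_7d. Hspb1 had 5.76, 5.89 and 8.49 CPM in TBI_7d and 8.29, 4.49 and 3.83 CPM in Zi_7d. Aspg had 10.4, 10.5 and 13.1 CPM in TBI_7d and 11.9, 9.58 and 8.30 CPM in Zi_7d. In all 3 genes mouse A lay within the range of the controls. The log2 fold changes were -0.20 (95% interval -0.65 to 0.25) for Nes, -0.27 (-0.97 to 0.42) for Hspb1 and -0.19 (-0.57 to 0.19) for Aspg.

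**Figure D5:**
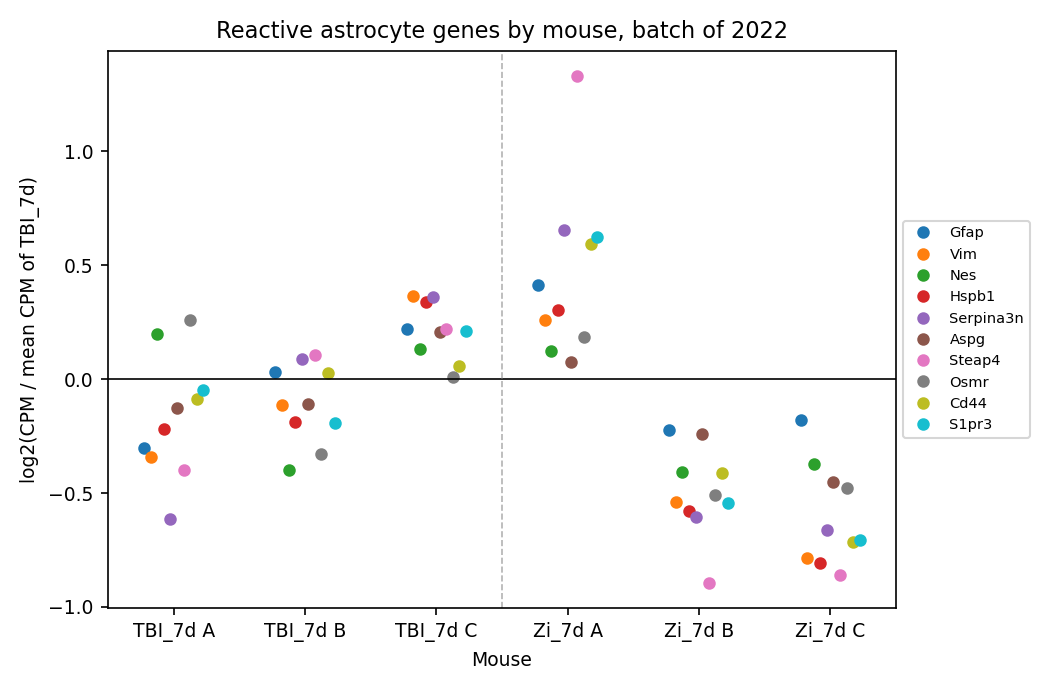
Level of the 10 genes in each mouse of the 2022 batch, as log2 of CPM over the mean CPM of the 3 TBI_7d mice, with 1 point per gene and mouse. Zi_7d mouse A is above the mean of the TBI_7d mice for all 10 genes, and Zi_7d mice B and C are below it for all 10.

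The zileuton-treated mice thus divided in the same way for every one of the 10 genes. Zi_7d mouse A was the highest of its group for 10 of 10 genes, which held for 36.7% of all genes. It was the highest of all 6 mice for 5 of 10, against 16.4% of all genes, and mice B and C were both under every control for 7 of 10, against 15.1%. The median SD of log2 CPM over the 10 genes was 0.56 in Zi_7d and 0.30 in TBI_7d, beside 0.14 and 0.16 over all genes. The summed CPM of the 10 genes were 3157, 3981 and 4700 in TBI_7d and 5288, 3192 and 3193 in Zi_7d.

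Leaving out Zi_7d replicate A left mice B and C, which were below the mean of the controls for all 10 genes. All 10 log2 fold changes were therefore negative, with a median of -0.59. An unadjusted p under 0.05 was then reached by 7 of the 10, where 5.94% of all genes were lower at that level, and none passed after adjustment (smallest adjusted p 0.298). Mouse A was the highest of its group for all 10 genes but for 36.7% of all genes, so these shares are not alike. The count of 7 therefore describes mice B and C and does not test an effect of zileuton. Leaving out any 1 of the other 5 mice gave medians from -0.20 to 0.03, with 0 of 10 at an unadjusted p under 0.05. Mouse A is 1 of 3 in its group, and a day after injury cannot be given to it.

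Other lists were read in the same mice. No gene of any list passed the test. The summed CPM of the 4 other pan-reactive genes were 65.3, 85.8 and 94.9 in TBI_7d and 111, 46.1 and 40.5 in Zi_7d, so mouse A was the highest here too. The microglia and macrophage markers summed to 1800, 2684 and 3532 CPM in TBI_7d and 3004, 2006 and 1855 CPM in Zi_7d, and mouse A was again the highest of its group, inside the range of the controls. The 12 astrocyte markers summed to 7753, 8977 and 8427 CPM in TBI_7d and 9189, 8797 and 9271 CPM in Zi_7d, where mouse A did not stand apart. The choroid plexus and ependymal markers summed to 18.1, 491 and 1074 CPM in TBI_7d and 1495, 1285 and 32.5 CPM in Zi_7d. The part of these cell types in the pattern of mouse A was not tested.

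Of the partner genes, Spp1 had 785, 982 and 1565 CPM in TBI_7d and 733, 345 and 370 CPM in Zi_7d. All treated mice were under all controls, which held for 7.04% of all genes, with a log2 fold change of -1.20 (95% interval -1.98 to -0.42, adjusted p = 0.713). Osm had 0.720, 0.658 and 0.820 CPM in TBI_7d and 1.25, 0.628 and 0.627 CPM in Zi_7d, with a log2 fold change of 0.19 (95% interval -0.66 to 1.04).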

How the data were processed

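The 2018 table held whole-number read counts per gene and FPKM, and the 2022 table held estimated counts and TPM, as deposited by the authors. The submitters' processing notes name HISAT2, featureCounts, Subread and DESeq2 and the build GRCm39, with no versions. FPKM in the deposited table equalled count over total and length to 0.1% for 100% of the genes checked. In 2018, 62.3% to 64.4% of counts from 1 to 20 were even, so a fit on counts divided by 2 was run. In 2022, 13.7% of values were not whole and were rounded, and 223 assembled loci took 0.209% of counts. Positions come from GENCODE on GRCm38 and were not used for counting.

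Counts were fitted with edgeR 4.0.16 (R 4.3.3; TMM, filterByExpr, quasi-likelihood test, adjusted p under 0.05 over all genes), separately in each table with its 2 groups of 3 mice. Level summaries used CPM, the deposited FPKM and the deposited TPM. SE is the log2 fold change over the root of F, and intervals are 95%. Alternatives were other scalings and filters, DESeq2 1.42.0, limma 3.58.1 on log2(FPKM or TPM + pseudocount), a replicate block, a length correction, and leaving out each mouse. The fits were tested on simulated data. Figures used matplotlib 3.10.9. The biological coefficient of variation was 0.174 in 2018 and 0.149 in 2022. Among the 10 genes, the lowest sham counts were those of Steap4 (39 to 49) and Osmr (79 to 101). No 2 mice held identical values. Each library was taken as 1 mouse, as the study gives 3 per group; the labels do not say that samples came from separate animals, and p-values then measure only the spread between these samples.

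The 10 genes and all lists were chosen with earlier results of these data known. Genes named beside the 10 were those of each list with the largest change among those called, up to 4, or the highest mean CPM, up to 3, all tested Serpina3 genes, Osm, Il6st, Spp1 and Sphk1, and the 5 genes with the nearest profile in 2018. S100a10, Ptgs2, Fkbp5, and other genes named because they did not pass or make up a count of 3 or fewer, were chosen after their values were seen.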

Additional observations from a re-analysis of the deposited data

How the results depend on the processing

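In TBI_WT against SH_WT, all 10 genes kept their direction in every alternative and passed the test in all but 2 of them, without SH_WT replicate 1 or 3, where Hspb1 was lost. Their size changed with limma on log2(FPKM + 1), where the added 1 shrinks the change of low genes: the median log2 fold change of the 10 was 1.56 instead of 3.13 (2.70 with a pseudocount of 0.1), and Osmr was at 1.19, Steap4 at 1.39, Cd44 at 1.89 and Aspg at 1.34 with the added 1. Genes called over the whole table ranged from 3713 (limma with no filter) to 6026 (DESeq2), beside 5479, and from 3848 to 4956 on leaving out 1 mouse. The share of calls that were higher was 60%, and 68.2% with library totals alone and 71.5% with limma and no filter. Fkbp5, at -0.03, was 0.026 with library totals alone, 0.017, 0.019 and 0.017 in the limma fits with a pseudocount of 1, of 0.1 and of 1 with no filter, and 0.038 with the length trend removed, and ran from -0.18 to 0.11 on leaving out 1 mouse. Over the same fits Ptgs2 ran from -0.31 to 0.013 and Sphk1 from -0.34 to 0.023. Beside the calls that turned on 1 mouse, limma with no filter lost Osm (adjusted p = 0.0653), Lmnb1 (0.0659) and Glul (0.0774), DESeq2 lost Steap1 (0.0669) and gained S100a10 (0.0322), the robust fit lost Steap1 (0.0693), and removing the length trend gained Slc1a2 (0.0195), and the cause was not tested.

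In Zi_7d against TBI_7d, genes called were 0 with edgeR, 4 with every gene of at least 1 count, 27 with DESeq2, and 4 and 3 with limma at a pseudocount of 1 and 0.1, with 0 of the 10 genes among them in each. Steap4, at 0.26, was -0.051 with limma at a pseudocount of 0.1, and the cause was not tested. On leaving out 1 mouse, log2 fold changes ran from -0.20 to 0.16 for Gfap, from -0.63 to 0.16 for Serpina3n, from -0.62 to 0.16 for S1pr3, from -0.55 to 0.18 for Cd44, from -0.87 to 0.62 for Steap4 and from -0.22 to 0.36 for Osm.

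With the replicate block, 4337 genes and all 10 reactive astrocyte genes were called after injury, Glul was lost (adjusted p = 0.0523), and in the zileuton comparison 0 genes were called (729 at an unadjusted p under 0.05) and Steap4 was -0.14. Same-numbered mice did not deviate together (correlations -0.02, -0.09 and -0.03 in 2018 and -0.28, 0.06 and -0.28 in 2022). Between mice of unlike number the correlation reached 0.13 in 2018 and 0.31 in 2022. Whether the numbers mark pairs is not known. Depth limits Osm, Serpina3i and Lcn2 in sham, with few counts or 0 in single mice.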
